A study of Canis lupus familiaris with 36 samples.

Results

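Drug interaction at 72 h was examined in CLBL-1, a cell line from a canine diffuse large B-cell lymphoma, as the departure of the combined treatment from the sum of the single treatments. Members are the 11 of 36 libraries that were incubated for 72 h and kept for analysis. They fall into 4 groups: DMSO, the solvent control (3 libraries), 1 µM of the BTK inhibitor Ibrutinib (Ibr, 2 libraries), 5 µM of the PI3K inhibitor AS-605240 (AS, 3 libraries), and both inhibitors at these concentrations (Ibr + AS, 3 libraries). Replicates 1, 2 and 3 are cells of passages p121, p126 and p128 of this single line, and the cells of all 4 groups carry no other treatment. The DMSO control was given the solvent amount of the combination, and the amount in the single treatments is not given in the sources used here. The libraries at 24 h (12) and 48 h (12) serve as a comparison only.

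The B-cell receptor is the antigen receptor of B cells, and many B-cell lymphomas depend on signals from it. Its kinases activate PI3K, which makes the membrane lipid PIP3, and PIP3 brings both AKT and BTK to the membrane. BTK in turn activates phospholipase C gamma and NF-kB, while AKT activates mTOR, which drives protein and lipid synthesis. Ibr blocks BTK, and the study describes AS as an inhibitor of PI3K, specifically of its PIK3CG form. It adds that PI3Ks also receive signals from receptors other than the B-cell receptor. A response to both inhibitors may equal, exceed or fall short of what each does alone.

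For each gene the departure is the log2 fold change (log2 FC) of Ibr + AS against DMSO minus the sum of the log2 FC of Ibr and of AS. A departure of 0 means that the fold changes multiply. It is positive where Ibr + AS lies above the sum, whatever the direction of the single changes, and negative where it lies below. A gene is termed beyond the sum where the combined change is larger in size than the summed single changes, and short of the sum otherwise. A gene was called where the adjusted p-value (edgeR's quasi-likelihood test, Benjamini-Hochberg) was at most 0.05 and the absolute log2 value above 1.

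Depth of the 11 libraries was 9941919 to 14581090 reads assigned to genes (median 11793510), and 3 reads correspond to 0.204 to 0.3 CPM (reads scaled to library size, using TMM factors). One Ibr library at 72 h, replicate 3, was left out. The study also leaves it out as an outlier. Its mean distance over log2 CPM was 33.65 to the other libraries of its group, 31.18 to AS 72 h and 31.54 to DMSO 48 h. Only passages p121 and p126 therefore hold all 4 treatments, and its values are named below as those of the left-out library. All libraries of passage p121 come from one inferred sequencing run and those of passages p126 and p128 at 72 h from the other, so that each passage holds its treatments within a run. The study's list of samples dates the last harvest of passage p128 to a later week than its earlier harvests. Of 5 B-cell markers, TNFRSF13C and 3 MHC class II genes were present, while NFAM1 was at 0 in DMSO, AS and Ibr + AS. The summed level of the 5 was 4820 to 5460 CPM in DMSO, 2750 to 3170 in Ibr, 3670 to 4300 in AS and 2590 to 3930 in Ibr + AS. Most of this sum was DLA-DRA (mean 3294 CPM), and the 3 MHC class II genes lay below DMSO in each treatment. TNFRSF13C (mean 124.8 CPM) went the other way, with log2 FC of 0.79 for Ibr, 0.53 for AS and 1.34 for Ibr + AS. The 7 T and NK cell markers summed to 0.0972 to 2.1 CPM, with IFNG at 0 in all 11 libraries. The 4 myeloid markers summed to 201 to 235 CPM in DMSO, 318 to 339 in Ibr, 244 to 254 in AS and 344 to 410 in Ibr + AS, mostly LYZ and NCF4, with TREM2 at 0 in DMSO, Ibr and AS. The 7 epithelial and melanocytic markers summed to 15.5 to 26.9 CPM.

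Of 18670 genes tested, 488 (2.61%) departed from the sum at 72 h, 277 of them positively (1.48%) and 211 negatively (1.13%). Among 10795 genes whose mean reached 1 CPM, 423 (3.92%) were called. Leaving out passage p121 or p126 leaves a single Ibr library at 72 h, on which such counts then rest. Without the libraries of passage p126, 336 genes were called, 173 of them positive and 245 short of the sum, without those of passage p121 676, and without the 72 h libraries of passage p128 269. The 3 changes against DMSO that make up the departure were called for 745 genes with Ibr (3.99%; 458 without passage p126), 409 with AS (2.19%) and 1405 with Ibr + AS (7.53%). In bulk RNA, fewer cells of a kind and less RNA per cell cannot be told apart.

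Most departures fell short of the sum. Of the 488 genes, 386 (79.1%) were short of it and 102 (20.9%) went beyond it, where 31.7% of all genes tested lay beyond. In the largest class, 252 genes, the combined change had the direction of the summed changes and was no larger than the larger single change. This class held 51.6% of the calls and 38.2% of all genes tested, where it was also the largest. In 105 further short genes (21.5%; 15.8% of all tested) the combined level lay on the other side of DMSO from the sum. In 29 (5.94%; 14.3%) it exceeded both single changes without reaching their sum. Of the short genes, 309 had no called difference between Ibr + AS and either inhibitor. Ibr + AS differed from Ibr in 323 of all genes (1.73%) and from AS in 601 (3.22%). Most genes tested thus had no such difference either, and the 309 do not set the short genes apart. Of the 102 genes beyond the sum, 81 differed from both, and 73 were called with Ibr + AS but with neither inhibitor alone. The shares of all genes tested that meet these joint conditions were not counted. The genes were picked by a contrast on the same libraries, so the 309, 81 and 73 carry no test. The 102 divide evenly into 51 that moved in the direction of the sum, 45 of these downwards, and 51 that moved against it. Each of these classes held 10.5% of the calls, beside 23.1% and 8.66% of all genes tested. The plot of the combined change against the sum shows both groups on either side of the line of equality.

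**Figure D1:**
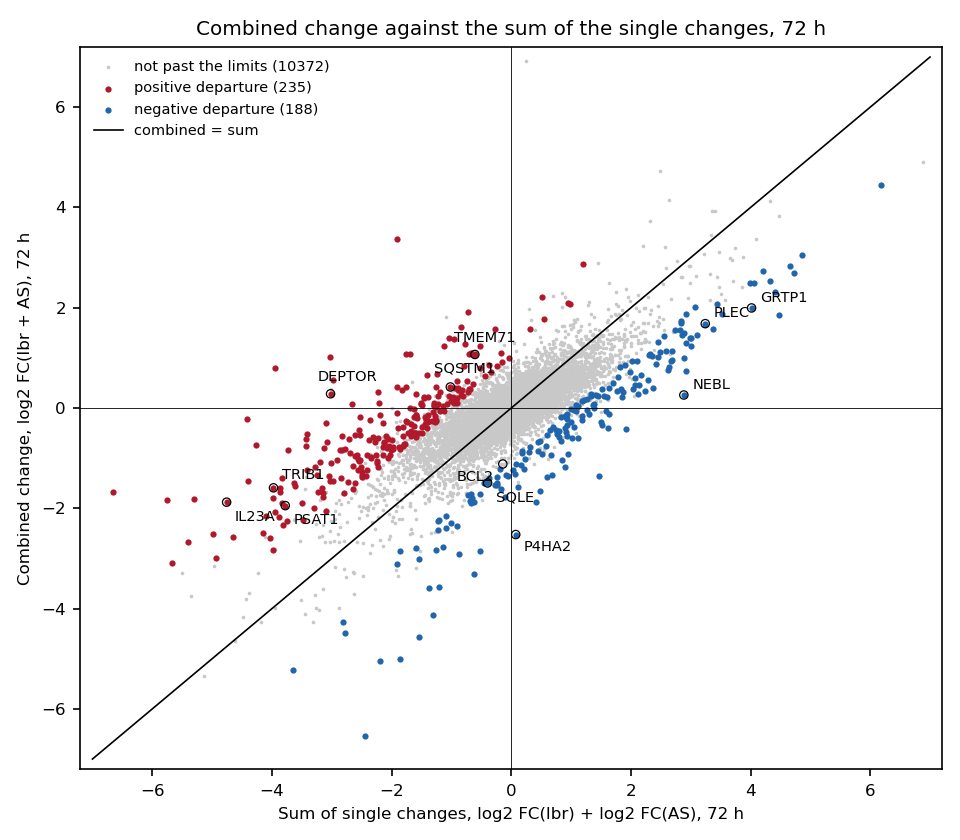
Combined log2 FC of Ibr + AS at 72 h (vertical) against the sum of the log2 FC of Ibr and AS (horizontal) for genes of at least 1 CPM; 10790 of them lie within the axes and 5 outside. Grey points are not past the limits, red points have a called positive departure (235) and blue points a called negative one (188); on the left, most red points lie between the diagonal and the zero line, and on the right most blue points do, while the downward tail of blue points near a sum of zero holds genes such as P4HA2 and SQLE.

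The single inhibitors mostly lay below DMSO in genes with a positive departure and above it in those with a negative one. Among the 277 positive genes both inhibitors alone lay below DMSO in 263 and all 3 treatments in 183, with median log2 FC of -1.21 for Ibr, -0.95 for AS and -0.49 for Ibr + AS. Among the 211 negative genes both inhibitors alone lay above DMSO in 157 and all 3 treatments in 97, with medians of 0.70, 0.58 and -0.12. These medians describe genes that were picked by the same contrast and carry no test.

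The level in the control also differed between 24 and 72 h in these genes. Over the 277 positive genes the median difference of DMSO at 72 h from 24 h was 1.15 on the log2 scale, and 262 (94.6%) lay higher at 72 h, where 48.9% of genes of at least 1 CPM did. The same medians of the treated groups were -0.37 for Ibr, 0.01 for AS and -0.21 for Ibr + AS. Over the 211 negative genes the median difference of DMSO was -0.51, against 0.32 for Ibr, 0.26 for AS and -0.08 for Ibr + AS. The DMSO libraries at 72 h are part of both quantities, and the part of this change in the departures was not tested. All 3 DMSO libraries lay above the other 8 in 125 of the positive genes (45.1%) and in 12.3% of genes of at least 1 CPM. They lay below the other 8 in 54 of the negative genes (25.6%; 12.7% of genes of at least 1 CPM). The Ibr + AS libraries lay above the other 8 in 37 of the positive genes (13.4%; 8.75%) and below them in 77 of the negative ones (36.5%; 9.68%). A high level in DMSO or Ibr + AS raises the departure by its definition, and a low one lowers it. The genes were picked by that contrast on the same libraries, so these shares carry no test. The shares of positive and negative genes are over all calls, of which 423 of 488 reached 1 CPM.

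**Figure D2:**
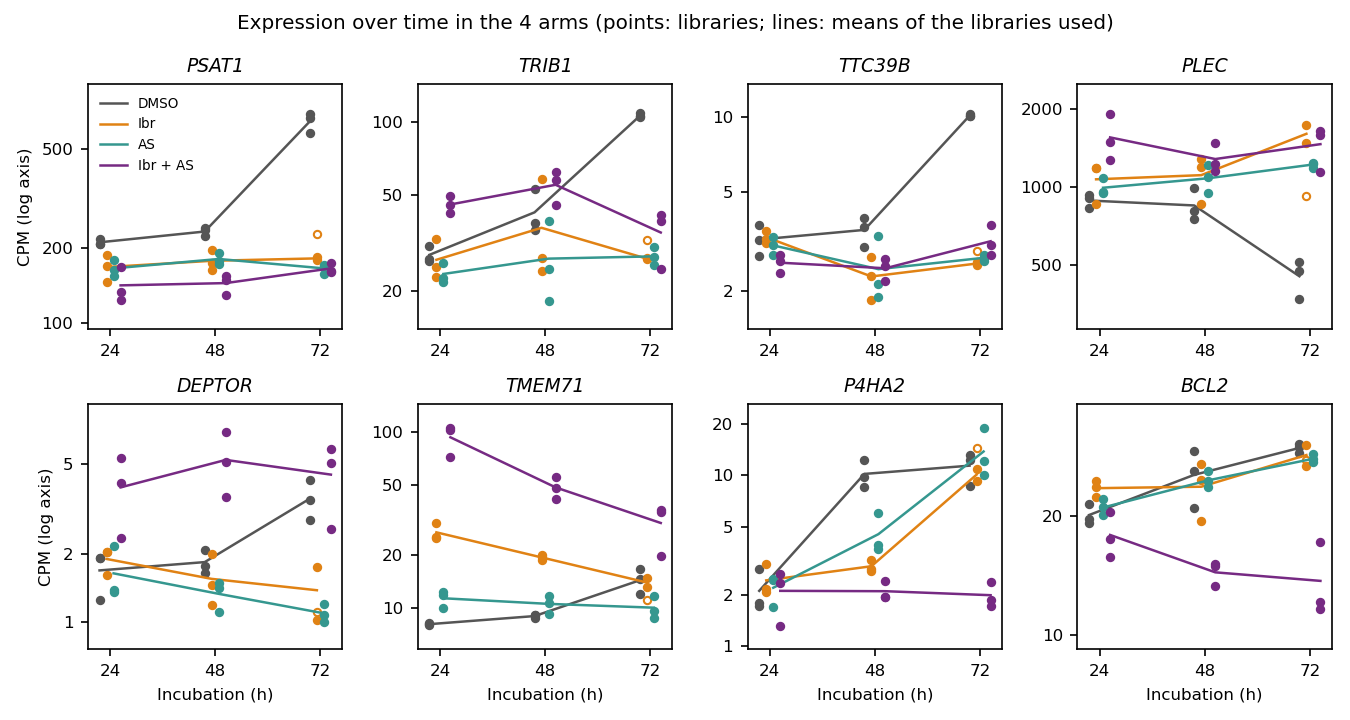
Levels of 8 genes in CPM (vertical, log axis) at 24, 48 and 72 h in DMSO, Ibr, AS and Ibr + AS; points are libraries, the open circle is the left-out Ibr library, and lines join the means of the libraries used. At 72 h PSAT1, TRIB1 and TTC39B were highest and PLEC lowest in DMSO with the treated groups near each other, whereas P4HA2 and BCL2 were lowest in Ibr + AS.

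Symbols could be paired with 1068 of the genes tested. Of these, 36 (3.37%) were called, 15 positively and 21 negatively, and 8 of the 36 went beyond the sum. All 36 had a mean of at least 1 CPM. They are described below by what they encode, those beyond the sum first, with the libraries given in the order of passages p121, p126 and p128.

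P4HA2 (ENSCAFG00000000824), which encodes a subunit of the prolyl hydroxylase that modifies collagen, had the largest departure of the 8 genes with a symbol that went beyond the sum. It measured 12.3, 13.1 and 8.71 CPM in DMSO, 10.9 and 9.23 in Ibr, 19, 12.2 and 10 in AS and 1.72, 2.38 and 1.86 in Ibr + AS. The left-out Ibr library held 14.4 CPM. No library of Ibr + AS came near any of the others. The log2 FC was -0.19 for Ibr, 0.26 for AS and -2.52 ± 0.23 (SE) for Ibr + AS, which gave a departure of -2.60 ± 0.30 (adjusted p = 8.64e-10). In DMSO the gene had a mean of 2.11 CPM at 24 h, 10.2 at 48 h and 11.4 at 72 h. With Ibr + AS the means were 2.11, 2.1 and 1.99 CPM over the 3 time points.

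SQLE (ENSCAFG00000001056), the squalene epoxidase of cholesterol synthesis, was the most abundant of these 8. Its level was 1050, 1140 and 996 CPM in DMSO, 921 and 824 in Ibr, 1180, 926 and 895 in AS and 417, 361 and 352 in Ibr + AS. All Ibr + AS libraries were thus well below the lowest library of the other groups. The departure was -1.10 ± 0.15 (adjusted p = 1.29e-08). ACAT2, a thiolase that joins acetyl-CoA units at the start of the same pathway, measured 489, 551 and 514 CPM in DMSO, 394 and 289 in Ibr, 430, 353 and 394 in AS and a mean of 160 ± 22.6 (SD, n = 3) in Ibr + AS. Its departure of -0.67 ± 0.14 had an adjusted p of 0.000289 and lay inside the log2 limit of 1. LRP1, an endocytic receptor of lipoproteins, was low throughout, with 0.726 to 1.53 CPM in DMSO and 0.186 to 0.496 in Ibr + AS, and its departure was -2.28 ± 0.69 (adjusted p = 0.0264).

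BCL2 (ENSCAFG00000000068), which holds back mitochondrial apoptosis, was lower with the combination and not with either inhibitor. The libraries measured 30.4, 28.8 and 29.9 CPM in DMSO, 30.2 and 26.7 in Ibr, 27.3, 28.7 and 27.8 in AS and 17.2, 12.1 and 11.6 in Ibr + AS. The single log2 FC were -0.06 and -0.09 (adjusted p = 0.898 and 0.74), and that of Ibr + AS was -1.12 ± 0.12. The departure of -0.97 ± 0.18 (adjusted p = 4.1e-05) fell just inside the log2 limit.

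AKAP12 and PTK2 were also lowest in Ibr + AS. AKAP12, a scaffold that anchors protein kinase A, measured 8.67, 6.87 and 8.3 CPM in DMSO and 3.13, 3.08 and 2.05 in Ibr + AS, with 5.94 to 8.45 in the libraries of the single inhibitors; its departure was -1.29 ± 0.29 (adjusted p = 0.00139). PTK2, the focal adhesion kinase, measured 9.47, 7.81 and 8.63 CPM in DMSO, 5.73 to 8.54 in the single inhibitors and 2.11, 3.48 and 1.58 in Ibr + AS, with a departure of -1.25 ± 0.29 (adjusted p = 0.00194). SMC1B, a cohesin subunit of meiosis, fell from 3.29 to 4 CPM in DMSO to 1.02 to 1.88 in Ibr + AS (departure -1.39 ± 0.37, adjusted p = 0.00789). BEND4, which encodes a BEN domain protein, measured 21.3 to 31.2 CPM in DMSO and 7.83 to 16.7 in Ibr + AS (departure -1.20 ± 0.35, adjusted p = 0.0379).

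TMEM71 (ENSCAFG00000001113), a gene of a transmembrane protein, was the only one of the 8 that rose beyond the sum. Its libraries held 16.6, 14.5 and 11.9 CPM in DMSO, 13.1 and 14.7 in Ibr, 11.6, 9.61 and 8.77 in AS and 19.7, 35 and 36.1 in Ibr + AS. The groups did not overlap between Ibr + AS and the others, although passage p121 was close to DMSO. The departure was 1.68 ± 0.28 (adjusted p = 0.000258). The Ibr + AS level had been higher before, with a mean of 93.1 CPM at 24 h and 48.3 at 48 h.

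**Figure D3:**
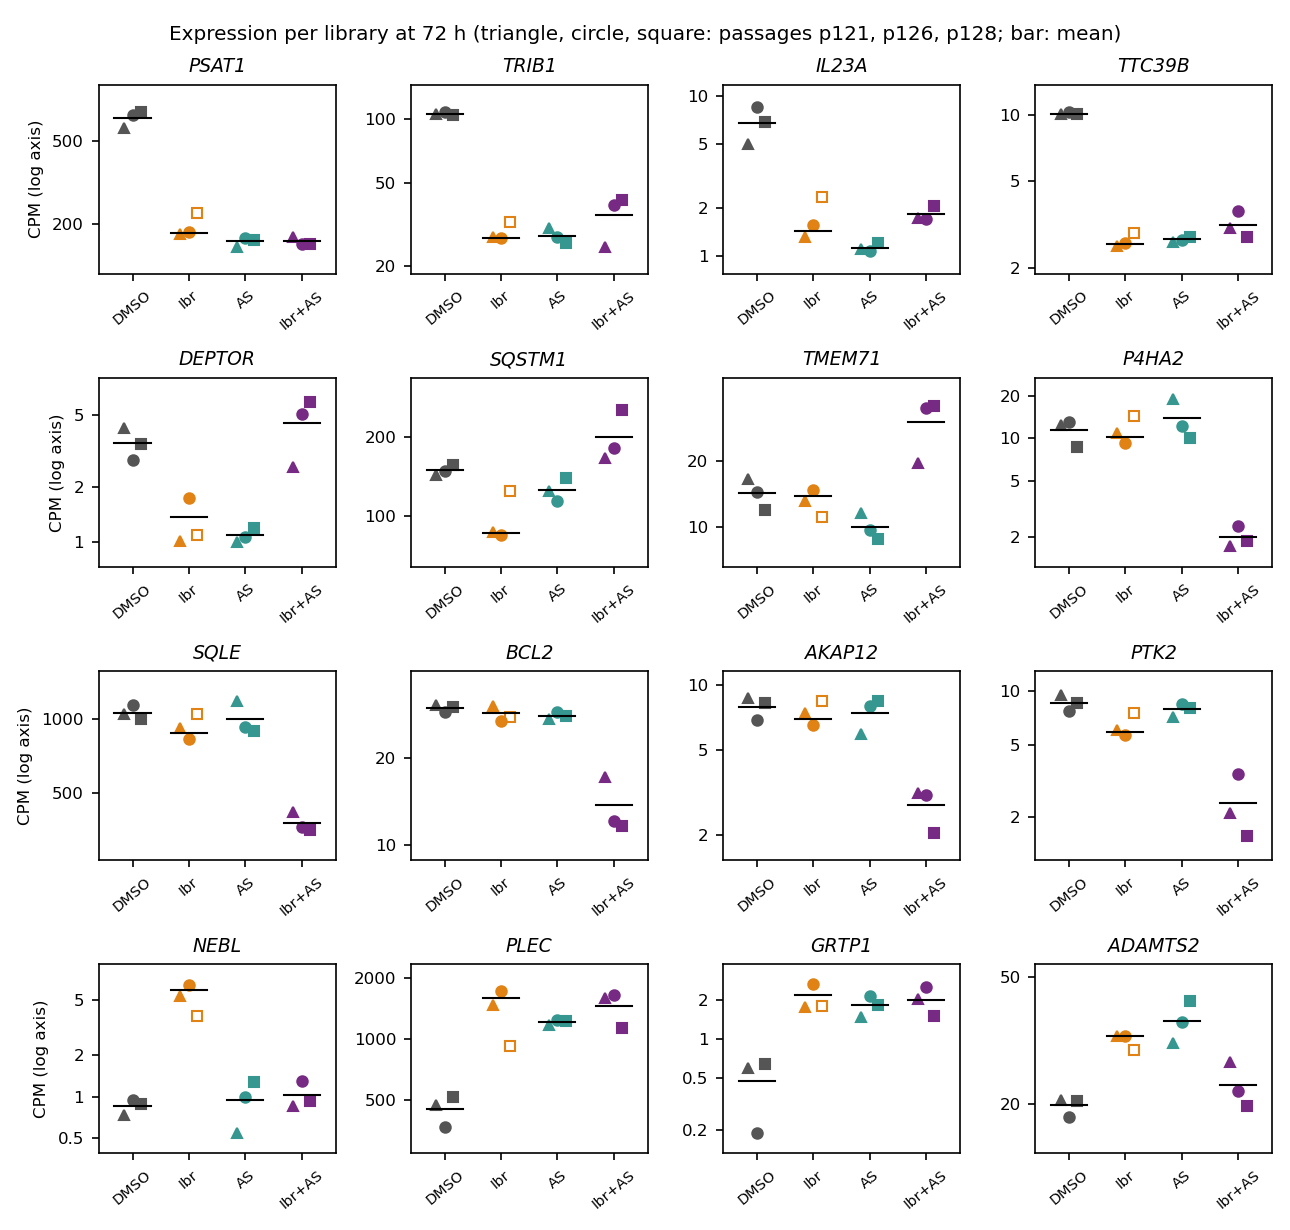
Level in CPM (vertical, log axes of different range) of 16 genes in each 72 h library of DMSO, Ibr, AS and Ibr + AS; triangles, circles and squares are passages p121, p126 and p128, bars are means of the libraries used, and the open square is the left-out Ibr library. In the upper row only DMSO stands apart, P4HA2, SQLE, BCL2, AKAP12 and PTK2 are lowest in Ibr + AS, and NEBL is high in Ibr without AS.

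PSAT1 (ENSCAFG00000001570), the phosphoserine aminotransferase of serine synthesis, gave the firmest departure among genes with a symbol. It measured 575, 661 and 689 CPM in DMSO, 180 and 184 in Ibr, 157, 172 and 169 in AS and 175, 161 and 162 in Ibr + AS, with 227 in the left-out library. The treated libraries lay close together and far below the control. The log2 FC was -1.83 for Ibr, -1.95 for AS and -1.95 for Ibr + AS, so that the departure of 1.83 ± 0.14 (adjusted p = 3e-21) has the size of a single change. Ibr + AS differed from Ibr by -0.12 (adjusted p = 0.642) and from AS by 0.004 (adjusted p = 1). SHMT2, which turns serine into glycine in mitochondria, had the same order of levels, with 446, 477 and 499 CPM in DMSO and 220 to 338 in the treated libraries used, and a departure of 0.97 ± 0.15 (adjusted p = 5.5e-07), inside the log2 limit.

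TRIB1, IL23A and TTC39B had a like pattern at lower levels. TRIB1, a pseudokinase that guides protein degradation, measured 106, 109 and 105 CPM in DMSO, 27.4 and 27.3 in Ibr, 30.5, 27.6 and 25.7 in AS and 24.8, 39 and 41.2 in Ibr + AS, and departed by 2.38 ± 0.36 (adjusted p = 0.000131). IL23A, a subunit of the cytokine interleukin-23, measured 5, 8.56 and 6.93 CPM in DMSO and 1.07 to 2.05 in the treated libraries used, with a departure of 2.88 ± 0.45 (adjusted p = 9.61e-07). TTC39B, a protein with tetratricopeptide repeats, measured 10.1, 10.3 and 10.1 CPM in DMSO and 2.54 to 3.67 in the treated libraries used (departure 2.19 ± 0.32, adjusted p = 1.86e-07). In each of these genes every treated library lay below the lowest DMSO library. MYO1A, an unconventional myosin, fell from 6.58 to 7.34 CPM in DMSO to 1.26 to 2.65 (departure 1.94 ± 0.41, adjusted p = 0.000464). TNF, the inflammatory cytokine, fell from 30.6 to 34 CPM to 10.2 to 18.5 (departure 1.48 ± 0.46, adjusted p = 0.0488).

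In another set of positive departures the single inhibitors lay below DMSO and the combination near or above it. DEPTOR (ENSCAFG00000000885), an inhibitor of the mTOR kinase, measured 4.27, 2.82 and 3.47 CPM in DMSO, 1.02 and 1.75 in Ibr, 1, 1.07 and 1.2 in AS and 2.58, 5.06 and 5.87 in Ibr + AS. Both single groups lay below every library of DMSO and of Ibr + AS, which overlapped each other. The departure of 3.30 ± 0.43 (adjusted p = 5.34e-09) was the largest of the genes with a symbol. SQSTM1, the autophagy receptor p62, measured 143, 148 and 156 CPM in DMSO, 87.4 and 84.8 in Ibr, 125, 114 and 139 in AS and 166, 181 and 253 in Ibr + AS (departure 1.44 ± 0.15, adjusted p = 2.09e-12). The left-out library, at 124 CPM, lay nearer to AS. MRNIP, a partner of the MRN complex of DNA repair, measured 8.4 to 10.4 CPM in DMSO, 4.36 to 8.21 in the single inhibitors used and 10.2 to 13.8 in Ibr + AS (departure 1.47 ± 0.25, adjusted p = 7.65e-06). ATAT1, the acetyltransferase of alpha-tubulin, measured 16.1 to 18.3, 9.32 to 14.2 and 14.6 to 20.4 CPM in the same order (departure 1.18 ± 0.22, adjusted p = 4.94e-05). TRPS1, a GATA-type repressor, TAGAP, a GTPase-activating protein of lymphocytes, and ERBB3, a receptor of the EGF receptor family, departed by 1.47, 1.43 and 1.01, with log2 FC of -0.27, -0.39 and -0.26 for Ibr + AS. ATP23 departed by 1.01 but stayed below DMSO, with log2 FC of -0.86 for Ibr, -0.74 for AS and -0.59 for Ibr + AS (adjusted p = 0.0215).

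NEBL (ENSCAFG00000004130), the actin-binding protein nebulette, showed a change with Ibr that was absent when AS was added. It measured 0.734, 0.941 and 0.887 CPM in DMSO, 5.37 and 6.41 in Ibr, 0.548, 0.985 and 1.28 in AS and 0.86, 1.29 and 0.932 in Ibr + AS, and 3.84 in the left-out library. Ibr alone stood apart, and the other 3 groups overlapped. The departure was -2.63 ± 0.49 (adjusted p = 4.18e-05), and Ibr + AS lay below Ibr (log2 FC -2.45, adjusted p = 6.39e-11).

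PLEC and GRTP1 were among the negative departures with higher levels in every treatment than in DMSO. PLEC, the cytolinker plectin, measured 476, 370 and 517 CPM in DMSO, 1480 and 1730 in Ibr, 1180, 1240 and 1230 in AS and 1590, 1640 and 1140 in Ibr + AS. The left-out library held 926 CPM. The departure was -1.56 ± 0.27 (adjusted p = 0.00057), and the mean of DMSO was 887 CPM at 24 h and 454 at 72 h. GRTP1, a TBC domain protein, measured 0.188 to 0.645 CPM in DMSO, near the level of 3 reads, and 1.46 to 2.62 in the treated libraries used (departure -2.02 ± 0.52, adjusted p = 0.00478). HIGD1B, of a family of hypoxia-inducible mitochondrial proteins, measured 0.376 to 1.05 CPM in DMSO, 2.33 to 2.47 in Ibr, 1.12 to 1.48 in AS and 0.894 to 1.56 in Ibr + AS (departure -1.85 ± 0.54, adjusted p = 0.0163). Its log2 FC was 1.69 for Ibr (adjusted p = 0.000537), 0.92 for AS (0.118) and 0.77 for Ibr + AS (0.166). BCR, the GTPase regulator named for the breakpoint cluster region and not the receptor, measured 2.35 to 4.4 CPM in DMSO and 5.12 to 9.81 in the treated libraries used (departure -1.25 ± 0.29, adjusted p = 0.00225). ARRB1, a beta-arrestin, and SEMA6A, a semaphorin, departed by -1.16 and -1.30 with the same order of levels.

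ADAMTS2 and SLC4A4 were higher with each inhibitor than in DMSO, and ADAMTS2 was nearer to DMSO with both. ADAMTS2, which trims procollagen, measured 20.7, 18.3 and 20.5 CPM in DMSO, 32.7 and 32.6 in Ibr, 31.1, 36.1 and 42.1 in AS and 27.2, 22 and 19.7 in Ibr + AS (departure -1.39 ± 0.18, adjusted p = 1.51e-08). Ibr + AS lay below every library of both inhibitors and overlapped DMSO. SLC4A4, a sodium bicarbonate cotransporter, measured 41.7 to 46.6 CPM in DMSO, 97.6 and 117 in Ibr, 58.9 to 80.5 in AS and 59.8, 68.3 and 29.4 in Ibr + AS (departure -1.63 ± 0.38, adjusted p = 0.00763). Its Ibr + AS libraries of passages p121 and p126 lay above DMSO and within the range of AS. The Ibr + AS library of passage p128 was the lowest of all. RTL6, a gene derived from a retrotransposon, departed by -1.78 ± 0.58 (adjusted p = 0.0451) and also had its lowest value, 0.279 CPM, in Ibr + AS of passage p128. FOXRED2, DENND5B, FAM13B and PITPNC1 departed by -1.05, -1.09, -1.05 and -1.05.

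Each passage was left out in turn, since 2 libraries of Ibr leave little to spare. Without passage p121 or p126 the Ibr group at 72 h held a single library, so calls kept or lost there rest on that library. Of the 36 genes, 14 remained past the limits in all 14 alternatives that keep the call rule: DEPTOR, IL23A, TRIB1, TTC39B, MYO1A, PSAT1, TMEM71, MRNIP, SQSTM1 and ATAT1 on the positive side and ADAMTS2, PLEC, P4HA2 and NEBL on the negative. A test of whether the departure is itself larger than 1 (glmTreat) kept 7, which were DEPTOR, IL23A, TRIB1, TTC39B, PSAT1, P4HA2 and NEBL. Without passage p121 the call of LRP1 was lost (adjusted p = 0.136), and SQLE and ERBB3 came to -0.94 and 0.98, inside the size limit. Without passage p126 adjusted p was 0.176 for TNF, 0.193 for TRPS1, 0.18 for SMC1B, 0.141 for SLC4A4, 0.334 for HIGD1B and 0.232 for GRTP1. It was 0.304 for SEMA6A, 0.189 for ATP23, 0.0773 for TAGAP, 0.293 for BEND4 and 0.0693 for BCR. Without passage p128 adjusted p was 0.0652 for PTK2, 0.0582 for AKAP12, 0.276 for RTL6, 0.0516 for LRP1, 0.0675 for ERBB3, 0.214 for ATP23, 0.0679 for PITPNC1 and 0.052 for BCR. FAM13B, FOXRED2, BEND4 and DENND5B then came to -0.96, -0.80, -0.95 and -0.99. Calls close to the limit were also lost with other models: TNF, past the limits in 9 of the 14 alternatives, and RTL6, in 8, were not called without the passage term, with total counts or with the sequencing run as a term, and RTL6 also not with DESeq2. ERBB3 was called in 6 and ATP23 in 7. None of the 36 changed sign in any of these.

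Gene lists were grouped by function from the genes with a symbol, and their counts stand beside 1.48% of all genes called positively and 1.13% negatively. Of 31 genes of BCR, PI3K, mTOR and NF-kB signalling, DEPTOR alone was called, and the median departure was -0.06, where that of all genes was 0.03. PTPRJ and INPP5D, phosphatases that restrain receptor and PI3K signals, had departures of -0.94 and -0.54 with adjusted p of 0.0323 and 0.00803, and DGKA, a diacylglycerol kinase, one of 0.41 (adjusted p = 0.0355). Adjusted p stayed at most 0.05 in 12, 11 and 8 of the 14 alternatives for PTPRJ, INPP5D and DGKA. Of 14 genes of sterol and lipid metabolism, 2 were called, SQLE and LRP1, both negative, and the median was -0.28. Of 8 genes of hypoxia and glycolysis, P4HA2 and HIGD1B were called, also negative, with a median of -0.71. P4HA2 was low in Ibr + AS, while HIGD1B was called against DMSO with Ibr only. The 22 genes of actin, adhesion and membrane scaffold had 3 called, NEBL, AKAP12 and PTK2, all negative.

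In the other lists few genes were called. Of 13 genes listed under the amino acid response and tRNA charging, PSAT1 and TRIB1 were called positively. TRIB1, described above as a pseudokinase that guides protein degradation, was placed in this list by choice, and its part in that response was not tested. ATF4, another member, had a departure of 0.12 (adjusted p = 0.829). At a smaller size adjusted p was at most 0.05 for 3 more positive members, SHMT2, the methionyl-tRNA synthetase MARS1 (0.50, adjusted p = 0.0098) and MTHFD1L (0.41, 0.0409), and for the valyl-tRNA synthetase VARS1 (-0.61, 0.0014). Of 12 redox and heme genes SQSTM1 was called. HMOX1, the heme oxygenase, measured 2.73 to 3.79 CPM in DMSO, 4.93 to 10.4 in the single inhibitors used and 25.6, 37.9 and 62 in Ibr + AS, with a departure of 1.40 ± 0.60 (adjusted p = 0.185). By the same test Ibr + AS differed from Ibr by 2.29 (adjusted p = 0.000358) and from AS by 2.84 (1.77e-06). At 24 and 48 h the departure of HMOX1 was 2.525 (adjusted p = 0.0125) and 2.425 (0.00342). Of 13 apoptosis genes TNF was called. None of 16 antigen presentation and interferon genes was called, although 14 of them had a positive value (median 0.30) and 4 an adjusted p of at most 0.05 at a smaller size. These 4 were DLA-DOA (0.78), DLA88 (0.63), IRF5 (0.58) and DLA-DRA (0.50). Their adjusted p stayed at most 0.05 in 13, 11, 13 and 8 of the 14 alternatives, in that order. The departure of DLA-DRA was -0.052 in passage p121 and 0.875 in passage p126. For the 3 MHC genes all treatments lay below DMSO on average, while IRF5 measured 113 to 132 CPM in DMSO and 171, 193 and 221 in Ibr + AS. No gene of the cell cycle (34), ribosomal protein (15), ribosome biogenesis (14), ER (15) or TCA cycle (13) lists was called by edgeR's test. Among these 5 lists, adjusted p was at most 0.05 at a smaller size for EIF4G2 (-0.80), SIL1 (0.81), RRM2B (0.71), POP1 (-0.69), WDR46 (-0.67), SCO2 (-0.59), CANX (-0.47), EEF1D (0.47) and ME2 (-0.40). It stayed so in all 14 alternatives for EIF4G2, POP1 and WDR46 and in 13 for SIL1. For RRM2B and CANX it did in 11, for SCO2 and EEF1D in 9 and for ME2 in 7.

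**Figure D4:**
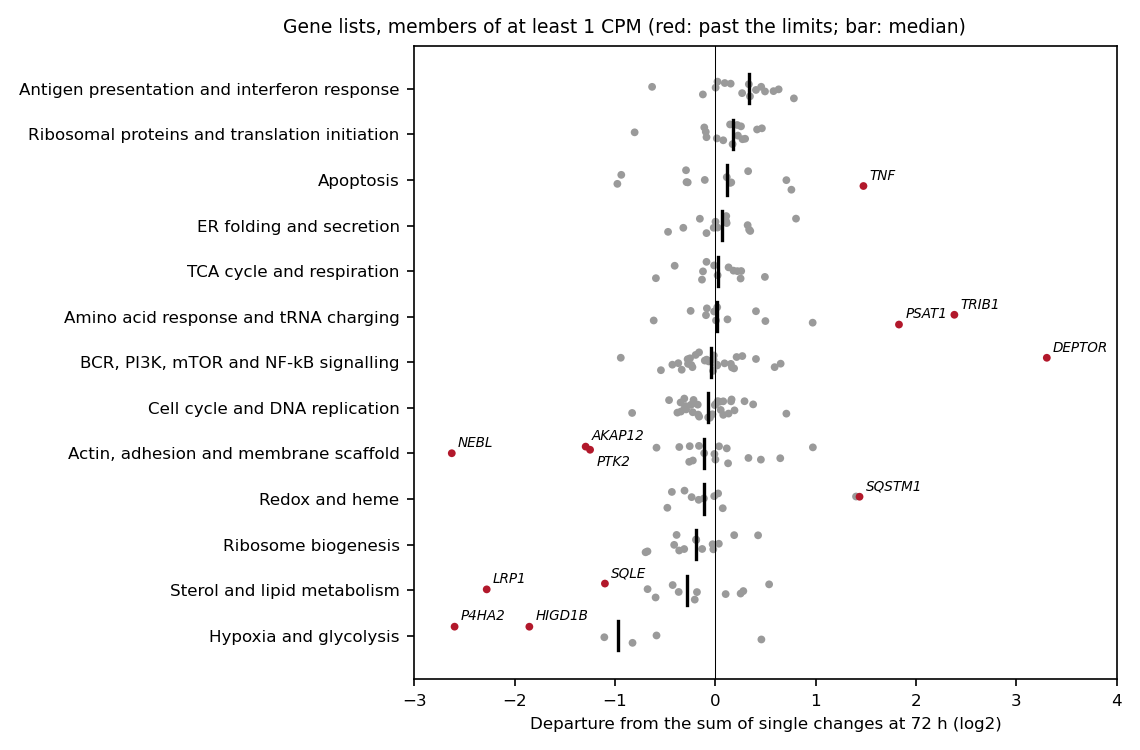
Departure at 72 h (log2, horizontal) of the members of 13 gene lists with at least 1 CPM; each point is a gene, red points are past the limits and named, and bars are medians over the members drawn. Most members lie within 1 of zero, the hypoxia and glycolysis list has the lowest median (-0.96 over its 6 members drawn) and antigen presentation and interferon response the highest (0.34 over 15).

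Some of the genes that the study names have a symbol here. MYC, the growth-promoting transcription factor, measured 269, 278 and 267 CPM in DMSO, 207 and 238 in Ibr, 190, 177 and 167 in AS and 256, 273 and 279 in Ibr + AS, and its departure was 0.90 ± 0.15 (adjusted p = 3.43e-06). BCL2 is described above. MYB, a transcription factor of blood progenitors, had log2 FC of -0.70, -0.41 and -1.49 for Ibr, AS and Ibr + AS, and its departure of -0.38 ± 0.17 had an adjusted p of 0.174. The values for PIK3R1, a regulatory subunit of PI3K, DSE and NHSL1 were -0.27, -0.32 and -0.70, with adjusted p of 0.288, 0.131 and 0.449.

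The departures at 24 and 48 h come from other libraries, and share with those at 72 h the passage terms, the genes kept and the estimate of spread. Of the 18670 genes tested, 167 were called at 24 h, 119 beyond the sum and 48 short of it. At 48 h 425 were called, 207 beyond and 218 short. Of the 488 genes at 72 h, 45 (9.22%) were also called at 24 h and 137 (28.1%) at 48 h. These overlaps are 26.9% of the calls at 24 h and 32.2% of those at 48 h. Of all genes tested, 2.61% were called at 72 h. The sign was the same at both times in 41 of the 45 and in 131 of the 137. Regardless of calls, the 488 had the same sign at 24 h in 75.6% and at 48 h in 82.8%, and all genes of at least 1 CPM in 62.3% and 67.8%. Across these 10795 genes the departures at 72 h correlated with Pearson's r = 0.362 with those at 24 h and 0.484 with those at 48 h. Genes are not independent replicates, and no p is given.

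The departure at 72 h differed from that at 24 h in 198 genes (1.06%), 105 of which were called at 72 h, and from that at 48 h in 160 (0.857%), of which 64 were called at 72 h. The tested difference contains the departure at 72 h, so these overlaps are in part built in. These counts depended on single passages, with 565 and 323 genes without passage p121 and 109 and 106 without passage p126. PSAT1 had departures of 0.10 ± 0.14 at 24 h and 0.08 ± 0.13 at 48 h beside 1.83 at 72 h, and the means of DMSO were 211, 233 and 642 CPM. P4HA2 had -0.26 at 24 h and 0.69 at 48 h before -2.60. SQSTM1 had 0.70 and 1.53 at the earlier times, both with adjusted p under the limit (0.000396 and 1.46e-14), and TMEM71 1.30 and 1.09 (0.00284 and 0.0055). NEBL had -0.73 and -1.93, of which the second was called (adjusted p = 0.000494). MYC had 0.89 and 0.80 (4.17e-06 and 6.9e-06), near its value at 72 h.

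**Figure D5:**
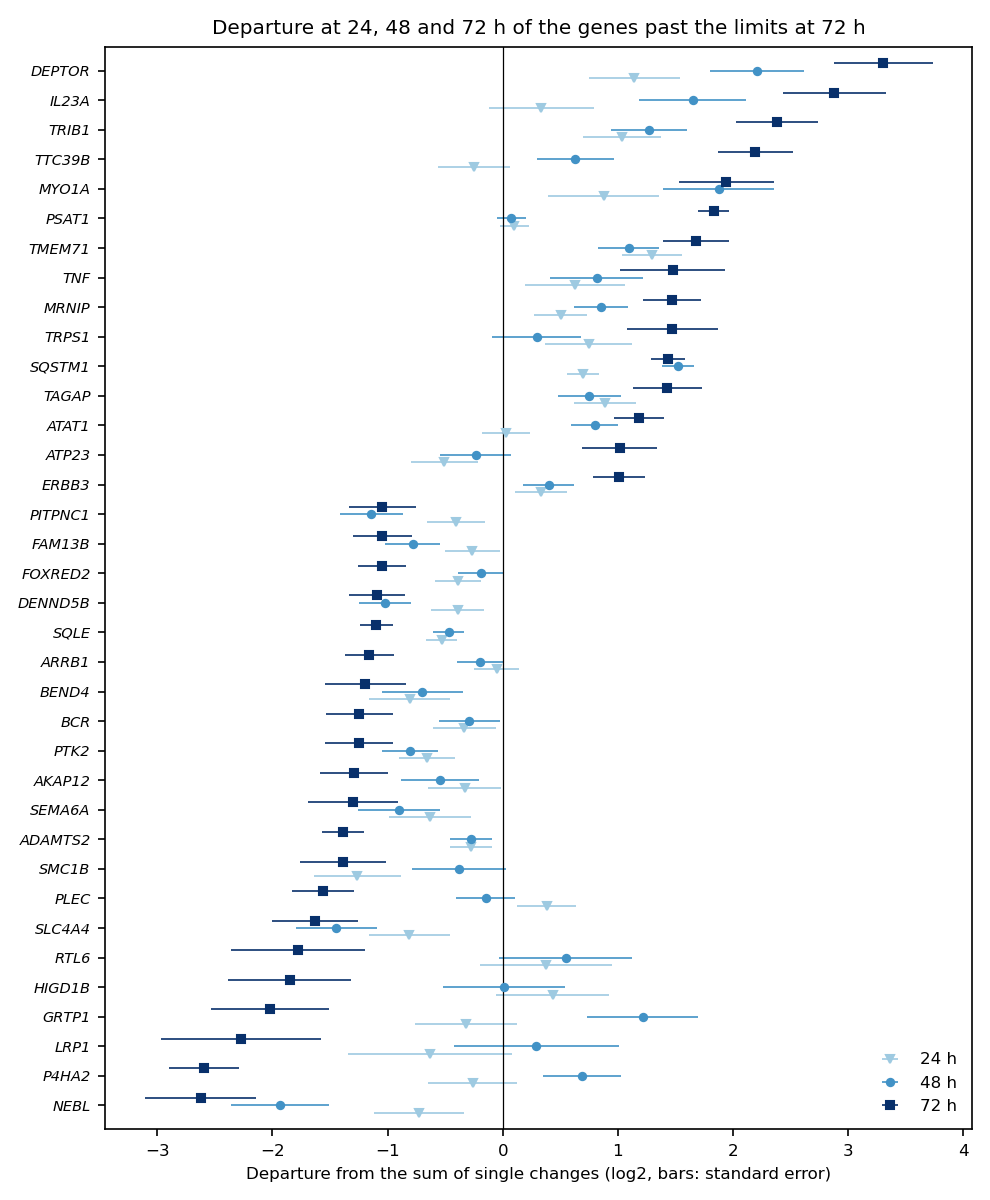
Departure from the sum (log2, horizontal) at 24, 48 and 72 h for the 36 genes with a symbol that were past the limits at 72 h, ordered by their value at 72 h; bars are standard errors of the fit. TMEM71, SQSTM1 and DEPTOR are positive at all 3 times, whereas PSAT1, TTC39B, PLEC and P4HA2 lie near zero or on the other side at 24 h.

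Genes without a symbol made up 452 of the 488 calls. The largest positive departure among those of at least 1 CPM was that of ENSCAFG00000032358, with 0.467, 0.658 and 0.726 CPM in DMSO, 0.164 to 0.583 in the single inhibitors used and 1.88, 8.04 and 10.6 in Ibr + AS (5.27 ± 0.86, adjusted p = 4.75e-05). It went beyond the sum, and its level in Ibr + AS of passage p121 was the lowest of the 3. ENSCAFG00000024295 measured 6.11 to 7.66 CPM in DMSO, 0.363 to 1.19 in the single inhibitors and 0.938, 1.39 and 4.19 in Ibr + AS (4.99 ± 0.80, adjusted p = 0.000207). The largest negative one was ENSCAFG00000014490, with 82.7, 103 and 66.7 CPM in DMSO, 42.1 and 32.1 in Ibr, 43.1, 31.2 and 30.6 in AS and 0.938, 0.993 and 0.745 in Ibr + AS (-4.10 ± 0.47, adjusted p = 3.15e-06). ENSCAFG00000015708 had the same order, with 21.6 to 29.1 CPM in DMSO, 9.23 to 22.1 in the single inhibitors and 0.313, 0.894 and 1.3 in Ibr + AS (-3.16 ± 0.57, adjusted p = 0.000815). In 44 of the 488 genes a group held 3 reads or fewer in every library, and the size of such a departure depends on the fit. On the linear CPM scale the single changes add rather than multiply, and the departure there is the mean of passages p121 and p126 only. ENSCAFG00000014490 and ENSCAFG00000015708 had departures of 19.6 and 0.45 CPM on it, of the other sign. Of the 488 genes, 479 kept their sign on that scale.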

How the data were processed

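RNA of CLBL-1 cells was sequenced in 36 libraries (4 treatments, 3 incubation times, passages p121, p126 and p128). The authors mapped reads to CanFam3.1 with STAR 2.7.5a and deposited whole-number counts of reads per Ensembl gene; the strand column kept is not given in the sources used here, so reads of overlapping genes on opposite strands cannot be told apart. For DMSO 24 h replicate 3 the title says p126 but the passage field p128, and the latter was used. Nothing was normalized before deposit, and the table has 30424 genes and 0 columns of no sample.

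Software was R 4.3.3, edgeR 4.0.16 and limma 3.58.1. Following the study, Ibr 72 h replicate 3 was left out. Genes with at least 2 reads over the other 35 libraries were kept (18670), without the study's restriction to protein-coding genes, and passage plus group of treatment and time were fitted (TMM factors, robust quasi-likelihood, 21 residual degrees of freedom). All groups share this estimate of spread because Ibr 72 h has 2 libraries. The contrast Ibr + AS minus Ibr minus AS plus DMSO was tested at 72 h, against that at 24 and 48 h, and beside the single contrasts. Comparisons share DMSO libraries and are given side by side. At 72 h, deviations from group means correlated between same-passage libraries with a median r of 0.022 (15 pairs, -0.244 to 0.203, 10795 genes), and those of different passages with -0.011 (30 pairs), so the numbers did not pair these libraries in the data; the passage term comes from the study's model. The procedure was run on simulated counts in which only Ibr + AS at 72 h differed, for chosen genes. These counts held no effect of a single inhibitor, time or passage, and no conclusion is drawn from them here. Libraries of a group differed by more than read sampling, and intervals of counts were not used. The p-values measure the spread left within groups after the passage term, estimated over all groups and times of this single line.

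Genes named are the 10 largest called departures on each side with a symbol, at least 1 CPM and the same sign in passages p121 and p126, the 6 largest beyond the sum, 6 genes that the study names, the 4 smallest p of each list, and 2 identifiers without a symbol on each side. ERBB3, SEMA6A, ATP23, ATAT1, TAGAP, FAM13B, FOXRED2, BEND4, ARRB1, DENND5B, PITPNC1 and BCR fall outside this rule and were named after their values were seen, as were HMOX1 for its levels and further list members. Members, lists and alternatives were chosen with earlier results of these data known. Symbols come from the given parts of the study's supplementary tables (1068 genes), whose genes were picked on these samples. Coordinates and sequences were not used here. Alternatives were DESeq2 1.42.0, RLE factors or total counts, filterByExpr, all 36 libraries, 72 h libraries only, no passage term, glmTreat, each replicate left out, the 72 h libraries of passage p128 left out, the linear scale and, added after the counts were seen, the sequencing run as a term.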

Additional observations from a re-analysis of the deposited data

Results flagged for a closer look

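Several departures at 72 h differed from those at an earlier time by a test of the difference itself (edgeR's quasi-likelihood test, Benjamini-Hochberg adjusted over 18670 genes, log2 difference above 1). Only named genes whose departure at 72 h had an adjusted p of at most 0.05 were looked at. That departure is part of the tested difference. Against 24 h the difference was positive for ENSCAFG00000032358 (4.62, adjusted p = 0.00461), IL23A (2.54, 0.0148), TTC39B (2.44, 0.000229), DEPTOR (2.16, 0.0333), PSAT1 (1.73, 1.28e-11), ATP23 (1.52, 0.0433) and ATAT1 (1.16, 0.0194). It was negative for ENSCAFG00000015708 (-3.95, 0.0339), P4HA2 (-2.33, 0.0025), PLEC (-1.94, 0.00511), ADAMTS2 (-1.11, 0.00593), ARRB1 (-1.11, 0.0249) and WDR46 (-1.05, 0.000792). WDR46, a factor of ribosome biogenesis, was inside the size limit at 72 h.

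Against 48 h the difference was positive for PSAT1 (1.76, adjusted p = 6.23e-12). It was negative for ENSCAFG00000015708 (-4.55, 0.0341), P4HA2 (-3.28, 5.38e-07), GRTP1 (-3.23, 0.00248), ACAT2 (-1.37, 1.18e-07) and ADAMTS2 (-1.11, 0.00643). ACAT2 had departures of 0.70 at 48 h and -0.67 at 72 h, with means of 524 and 518 CPM in DMSO, 191 and 342 in Ibr, 239 and 392 in AS and 141 and 160 in Ibr + AS. The means of the single inhibitors differed most between the times. For P4HA2 the means of the single inhibitors also differed most between the times. They were 2.94 and 10.1 CPM in Ibr and 4.53 and 13.8 in AS at 48 and 72 h. Those of DMSO were 10.2 and 11.4, and those of Ibr + AS 2.1 and 1.99. For PSAT1 the mean of DMSO differed most, at 233 and 642 CPM, while the treated means were between 145 and 182 at both times.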

How the results depend on the processing

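Each count stayed within 1.5 times its value under DESeq2, RLE factors, total counts, filterByExpr, all 36 libraries, 72 h libraries only and the sequencing run as a term: 469 to 525 genes departed from the sum, and 421 or more of the 488 genes were called again in each. Without the replicate block (no passage term) 466 genes departed, 445 of them among the 488, so leaving out the block moved no count past 1.5 times. glmTreat left 48 genes (32 positive, 16 negative, 12 beyond and 36 short), 43 for Ibr + AS against Ibr, 125 against AS, 154 for Ibr, 50 for AS and 523 for Ibr + AS against DMSO, and 3 and 13 for the differences from 24 and 48 h; this follows from its demand that the change exceed the limit. Without the 72 h libraries of passage p128 there were 269 (162 positive, 107 negative, 55 beyond, 214 short) and 200 for Ibr + AS against Ibr, from fewer libraries. Leaving out single replicates, with Ibr 72 h replicate 3 out or kept, gave 336 to 709 genes, 173 to 405 positive, 70 to 227 beyond and 245 to 542 short of the sum, 458 to 733 for Ibr, 232 to 587 for Ibr + AS against Ibr, and 109 to 565 and 106 to 323 for the differences from 24 and 48 h; with it kept, these differences numbered 475 and 295 without replicate 1, and there were 175 genes beyond the sum and 468 for Ibr without replicate 2. The highest counts of departures came without replicate 1, and the cause was not tested. Where Ibr 72 h replicate 3 was out, leaving out replicate 1 or 2 left a single Ibr library at 72 h. On the linear scale (mean of passages p121 and p126) ENSCAFG00000014490 and ENSCAFG00000015708 reversed (19.6 and 0.45 CPM). At this depth, genes at the level of 3 reads give no firm size.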
